A study of Mus musculus with 4 samples.

Results

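Cluster 07 is 1 of the 8 cell clusters that the authors deposited for a single-cell RNA study of brain microglia in mice on a demyelinating diet. Its cells were taken by the authors' cluster label alone: 367 of 3023 cells. The working name of the cluster is border-associated macrophage-like cells. The 4 libraries, 1 per group, were of male mice aged 12 to 14 months after 12 weeks on their diet. KO cuprizone (Trem2 -/-) held 114 (12.9%, 10.7 to 15.3) of these cells, Het cuprizone (Trem2 +/-) 87 (10.8%, 8.78 to 13.2), WT cuprizone (Trem2 +/+) 81 (10.6%, 8.498 to 12.99) and WT control (Trem2 +/+, control diet) 85 (14.9%, 12.1 to 18.1). The brackets hold each library's share with its exact binomial 95% interval. Cuprizone, a copper chelator that kills oligodendrocytes, was given at 0.2% of the diet. Each library pooled 2 hemibrains, and 30000 live CD11b+ CD45low cells were sorted from each. Border macrophages are known for more CD45 on their surface than microglia. The Trem2 -/- and +/- genotypes were compared on cuprizone only, so the genotype effect on the control diet was not analysed here.

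Border-associated macrophages line the meninges, the perivascular spaces and the choroid plexus. They are known in mouse for the mannose receptor Mrc1, the chemokine Pf4, the scavenger receptor Cd163 and the membrane protein Ms4a7. Some also carry Lyve1, Folr2 and Timd4, and others carry MHC class II and Ccr2. MHC class II molecules are pairs of an alpha and a beta chain that show peptides to CD4 T cells. Cd74 holds their groove closed until the H2-DM pair exchanges it for a peptide. TREM2 is a lipid-sensing receptor of microglia and other macrophages that signals through Tyrobp.

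The values are counts of unique molecular identifiers (UMIs), 1 per captured RNA molecule, read from the 3′ end. Cluster 07 held 1219988 UMIs in KO cuprizone, 753738 in Het cuprizone, 645093 in WT cuprizone and 1081975 in WT control. The median cell held 9628 UMIs in KO cuprizone, 6932 in Het cuprizone, 6324 in WT cuprizone and 12319 in WT control. Levels are CPM, the UMIs of a gene per 1000000 UMIs of the cells named. For the classes compared below, genes left out of a comparison were left out of this total too, which raises the CPM of class II-high cells most. With 1 library a group there is no replicate of diet or genotype and no test between groups: bracketed ranges after a ratio are exact 95% intervals for counting error only, and UMIs of 1 cell are not independent. Of the cell barcodes, 8 occurred in more than 1 library, 3 of them with a cell of cluster 07, and none was shared within cluster 07.

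Markers of border macrophages set cluster 07 apart from the microglial clusters. The reference for this was the pool of the 6 clusters 01, 02, 04, 05, 06 and 08 (2590 cells), and each ratio was taken within a library. Since the clusters were made from the same genes, these ratios describe the cluster and test nothing. Of 2379 genes with at least 200 UMIs, 56 (2.35%) were at least 2-fold higher in cluster 07 in each library and 0 were at least 2-fold lower in each. Against clusters 05 and 06 alone these shares were 3.4% and 0.042%, and against cluster 04, the pooled cluster with the lowest median microglia marker sum, 1.39% and 0.504%. Cluster 04 held only 6 cells (68199 UMIs) in WT control and 13 (142680 UMIs) in KO cuprizone, so its ratios in those libraries rest on few cells. Of the 20 genes listed for border macrophages, 18 were at least 2-fold higher in each library. Maf, a transcription factor shared with microglia, stood at 1.41 to 1.72 times the pool, and Siglec1, with 37 UMIs in cluster 07, lacked the 50 UMIs asked of list members.

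Pf4, a platelet-factor chemokine, had 1194, 1294, 1217 and 951 CPM in cluster 07 of KO, Het and WT cuprizone and WT control, against 75.2, 102, 97.3 and 82.7 CPM in the pool. Mrc1 had 220.5, 328, 276 and 220.0 CPM in cluster 07 in the same order, against 17.2, 29.5, 25.6 and 20.9 CPM in the pool. Every value of cluster 07 lay above every value of the pool for both genes. The ratio of cluster 07 to the pool was 11.5 to 15.9 for Pf4 and 10.5 to 12.8 for Mrc1. It was 11.5 to 14.8 for F13a1, a subunit of clotting factor XIII, 11.2 to 16.97 for the carbonyl reductase Cbr2 and 11.1 to 13.1 for Clec4n, the lectin Dectin-2. The scavenger receptor Cd163 stood at 9.96 to 13.5, Ms4a7 at 9.71 to 15.2 and the hyaluronan receptor Lyve1 at 11.04 to 17.7. The NAD-consuming ectoenzyme Cd38 reached 11.9 to 18.4 and the galactose lectin Clec10a 11.5 to 26.7.

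The MHC class II genes and the Cd209 lectins lay among the leading genes too. H2-Eb1, a beta chain, had 1316, 1632, 2153 and 943 CPM in cluster 07 of KO, Het and WT cuprizone and WT control, against 31.5, 113, 111 and 46.2 CPM in the pool. Its ratio was 14.4 to 41.8, that of the alpha chain H2-Aa 12.7 to 32.3, of the beta chain H2-Ab1 11.6 to 27.5 and of the invariant chain Cd74 9.04 to 25.1. The upper ends came from KO cuprizone, where the pool held the least of these genes. Cd209a, the mouse lectin best known from dendritic cells, stood at 9.71 to 22.4 and its relative Cd209f at 9.29 to 21.9. Against cluster 04 alone, with 6 cells in WT control and 13 in KO cuprizone, Cd209a was not higher in each library (0.9402 at the lowest). The 12 dendritic cell markers measured summed to 603, 561, 673 and 641 CPM in cluster 07 of KO, Het and WT cuprizone and WT control, against 489, 502, 527 and 663 CPM in the pool, and Zbtb46, a transcription factor of dendritic cells, had 11 UMIs in all of cluster 07. Of the monocyte list, Ly6c2 had 6 UMIs and Ace none. Flt3 was not analysed here.

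Microglia markers did not drop out of cluster 07, so the cells are called by their cluster number below. P2ry12, the purinergic receptor that marks resting microglia, had 1740.2, 1473, 1573 and 2174 CPM in cluster 07 of KO, Het and WT cuprizone and WT control, against 2658, 2182.3, 2227 and 3129.9 CPM in the pool. Summed over 17 microglia markers (Trem2 left out), the median cell of cluster 07 had 173 UMIs per 10000, against 279.5 in the pool. Within the pool, the median cell of cluster 04 had 161 per 10000, less than that of cluster 07. The sum over 18 border macrophage markers was 39.99 per 10000 in the median cell of cluster 07, against 4.24 in the pool. In 168 cells (45.8%) both sums were high at once: the microglia sum was above the pool's 5th percentile and the border sum above the pool's 95th.

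The microglia sum split the 367 cells in 2 at 91.7 UMIs per 10000, a split added after seeing the data. The 107 marker-low cells had a median of 47.3 microglia UMIs and 103 border UMIs per 10000, and 3984 UMIs in all. For the 260 marker-high cells these medians were 202, 31.7 and 10755. Pf4 averaged 3171 CPM over the 4 libraries in marker-low cells and 861 CPM in marker-high cells, against 89.2 CPM in the pool. P2ry12 averaged 273 CPM in marker-low cells and 2013 CPM in marker-high cells, against 2549 CPM in the pool. P2ry12 is among the markers that split the cells, so its gap between marker-low and marker-high cells was set in part by that split. Even the marker-high cells kept Pf4 above the pool in each library (7.402 to 12.8 times). Marker-low cells made up 24 of 114 (21.1%, 13.98 to 29.7) of cluster 07 in KO cuprizone, 35 of 87 (40.2%, 29.9 to 51.3) in Het cuprizone, 32 of 81 (39.5%, 28.8 to 50.99) in WT cuprizone and 16 of 85 (18.8%, 11.2 to 28.8) in WT control. Their share was highest in Het and WT cuprizone. Because it differed between libraries, the leading diet and genotype ratios below are given for all cells and for marker-low cells, and directions that turned in marker-low cells are named. Whether a cell with both marker sets holds RNA of 2 cells or free RNA of other cells was not tested; the doublet caller marked 25 of 3023 cells and 3 of cluster 07, which is too few to serve as a filter.

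**Figure D1:**
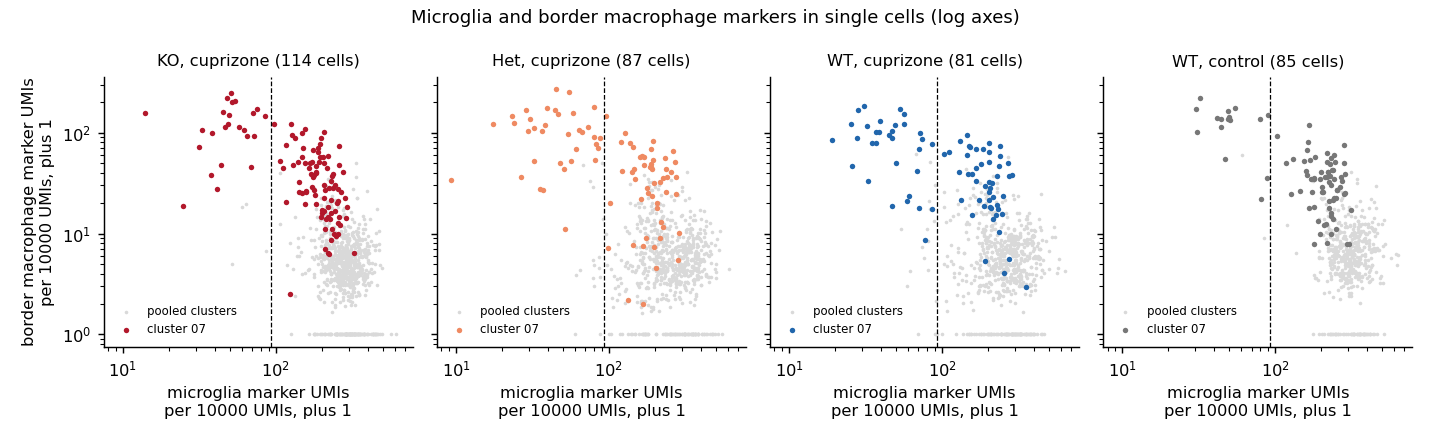
Each point is 1 cell, plotted by its UMIs of 17 microglia markers (horizontal, log axis) and 18 border macrophage markers (vertical, log axis) per 10000 UMIs, each plus 1, with cluster 07 in colour and the 6 pooled clusters in grey. The dashed line is the split at 91.7 per 10000, left of which lie 24 KO cuprizone, 35 Het cuprizone, 32 WT cuprizone and 16 WT control cells of cluster 07.

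Within cluster 07, MHC class II and Cd209a marked different cells. The sum of H2-Aa, H2-Ab1, H2-Eb1 and Cd74 was near 0 in some cells and high in others, and a cut at 27.96 per 10000 called 187 of 367 (50.95%, 45.7 to 56.2) MHC class II-high. In KO cuprizone it called 49 of 114 (42.98%, 33.7 to 52.6), in Het cuprizone 48 of 87 (55.2%, 44.1 to 65.9), in WT cuprizone 46 of 81 (56.8%, 45.3 to 67.8) and in WT control 44 of 85 (51.8%, 40.7 to 62.7). These intervals overlap in all 4 libraries. The cut makes a range, not a type: 32 cells lay within a factor of 2 of it, and 39 cells had no UMI of the 4 genes. Cells with at least 2 UMIs of Cd209a formed a class of 96 cells, of which 22 of 96 (22.9%, 14.95 to 32.6) passed the class II cut. That share was 8 of 32 (25%, 11.5 to 43.4) in KO cuprizone, 4 of 20 (20%, 5.73 to 43.7) in Het cuprizone, 3 of 19 (15.8%, 3.38 to 39.6) in WT cuprizone and 7 of 25 (28%, 12.1 to 49.4) in WT control. Most Cd209a cells were therefore class II-low in every library. The other 165 class II-high and 106 class II-low cells are the 2 remaining classes.

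**Figure D2:**
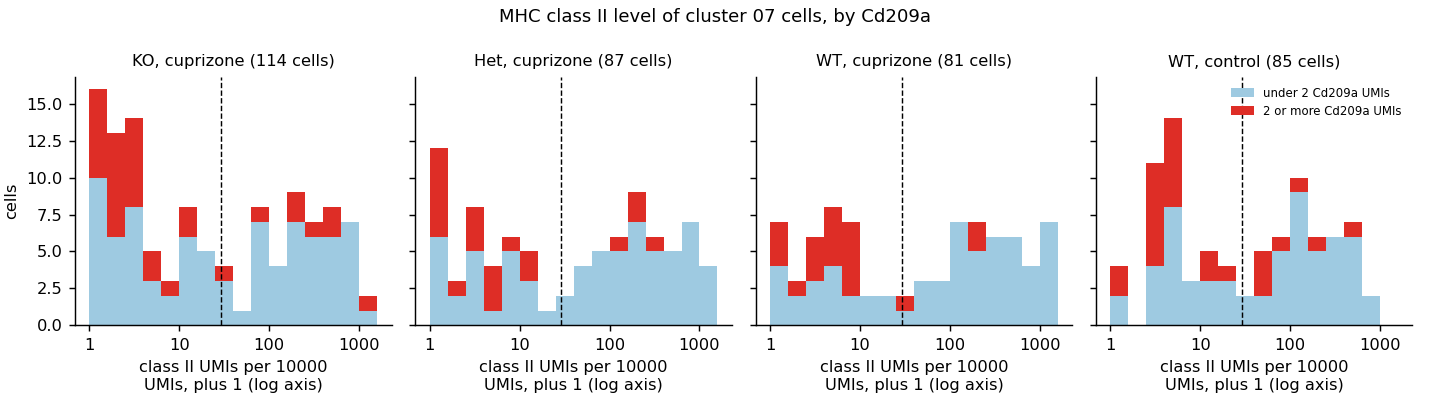
Histograms of the UMIs of H2-Aa, H2-Ab1, H2-Eb1 and Cd74 per 10000 UMIs, plus 1 (horizontal, log axis), over the cells of cluster 07 in each library (vertical, number of cells), with the cells of the Cd209a class in red. The red cells sit mostly left of the dashed cut: 22 of 96 lie to its right.

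Many class II genes share a promoter layout, in which an X box and a Y box lie a fixed distance apart before the start of the gene. Promoters of 3 genes of the class II-high cells are shown because H2-Aa and H2-Eb1 define those cells and H2-DMb1, which was not used to define them, had the smallest adjusted p among the genes higher in them. The 160 bases before the start are printed 5′ to 3′ on the gene's strand, from RefSeq sequence on GRCm38.p6, with the matches to CTNGNAAC (X box) and TGATTGG (Y box) in capitals.
H2-Aa (chr17:34287824-34287983, minus strand): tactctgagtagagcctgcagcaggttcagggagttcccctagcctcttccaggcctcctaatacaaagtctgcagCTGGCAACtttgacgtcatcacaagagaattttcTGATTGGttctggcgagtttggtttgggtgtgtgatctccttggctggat
H2-Eb1 (chr17:34305707-34305866, plus strand): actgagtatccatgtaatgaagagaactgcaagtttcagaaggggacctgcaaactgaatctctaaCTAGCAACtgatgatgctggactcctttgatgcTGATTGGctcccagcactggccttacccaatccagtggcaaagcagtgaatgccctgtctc
H2-DMb1 (chr17:34153031-34153190, plus strand): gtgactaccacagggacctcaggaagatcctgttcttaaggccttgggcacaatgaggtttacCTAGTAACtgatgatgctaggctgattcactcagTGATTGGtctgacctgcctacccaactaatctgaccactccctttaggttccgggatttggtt
The X match began 84 bases before the start in H2-Aa, 94 in H2-Eb1 and 97 in H2-DMb1, and 26, 25 and 26 bases separated it from the Y match. Both strands of the 250 bases before the start were searched in 32851 promoters of the table, with a pattern chosen with these promoters in view. CTNGNAAC occurred in 10.9% of them, TGATTGG in 7.23%, and the pair on 1 strand within 40 bases of each other in 0.0822%. Of the 7 class II genes with a promoter in the table, 4 held the pair, H2-Ob being the fourth, and H2-DMa, H2-DMb2 and H2-Oa did not. The promoters of Pf4, Mrc1 and Cd209a did not hold it either.

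The class II-high cells held more RNA of both peptide-exchange genes and of Ccr2, and less of 10 of 19 border macrophage markers, than the class II-low cells. The comparison asked which genes differ between the classes on average over the 4 libraries, with the 4 score genes and the Cd209a class left out. It did not require the same direction in each library. Of 5221 genes tested, 12 (0.23%) were higher and 46 (0.881%) lower in class II-high cells by edgeR's quasi-likelihood test with the library as a block (Benjamini-Hochberg adjusted p under 0.05). Microglia markers were at 185 UMIs per 10000 in the median class II-high cell and 166 in the median class II-low cell, and their part in the differences was not tested. Border markers were at 21.7 and 48.6 per 10000 in the same cells.

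H2-DMb1, the beta chain of the peptide exchanger, had 554, 578, 504 and 436 CPM in class II-high cells of KO, Het and WT cuprizone and WT control, against 179.6, 137, 269 and 233 CPM in class II-low cells (log2 fold change 1.34 ± 0.15 (SE), adjusted p = 5.05e-06). Its partner H2-DMa had 699.7, 585, 764 and 539.9 CPM, against 328, 241, 320.4 and 380.0 CPM (log2 fold change 0.998 ± 0.12 (SE), adjusted p = 1.14e-05). For both genes every class II-high value lay above every class II-low value. Ccr2, the receptor that draws monocytes into tissue, had 46.5, 21.4, 36.4 and 26.997 CPM in class II-high cells, against 12.1, 0, 5.72 and 3.42 CPM in class II-low cells (log2 fold change 2.37 ± 0.49 (SE), adjusted p = 0.0118), on 56 UMIs in the higher class. The monocyte and dendritic cell gene Plbd1, a phospholipase B-like protein, was higher (log2 4.56), as were the surface glycoprotein Cd52 (log2 0.56), the chemokine Cxcl16 (log2 0.80), the fractalkine receptor Cx3cr1 (log2 0.39) and Tmem176a (log2 0.65), each in 4 of 4 libraries. Lilra5 (log2 1.04) and Fxyd5 (log2 0.82) were higher as well, but kept the threshold in only 2 of 11 and 3 of 10 alternative settings. Cxcl16 kept it in 5 of 11, Cx3cr1 and Cd52 in 7 of 11 each and Tmem176a in 8 of 11. For Cxcl9, a chemokine induced by interferon gamma, 1 cell held 67.9% of the class II-high UMIs.

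Border macrophage markers made up 10 of the 46 genes lower in class II-high cells. Of the 19 border markers tested, 10 were lower and 1, Lilra5, higher, with a median log2 fold change of -1.09, against 0.01 over all genes tested. Folr2, a folate receptor, had 44.4, 138, 69.8 and 78.9 CPM in class II-high cells, against 209, 528, 360.5 and 178 CPM in class II-low cells (log2 fold change -1.89 ± 0.17 (SE), adjusted p = 3.37e-07). Pf4 had 596, 697, 686 and 638 CPM, against 1444, 2254, 1625 and 989 CPM (log2 fold change -1.21 ± 0.11 (SE), adjusted p = 3.91e-07), and Mrc1 86.7, 228, 179 and 110.1 CPM, against 294, 521, 315 and 305 CPM (log2 fold change -1.304 ± 0.14 (SE), adjusted p = 5.05e-06). Each of the 3 genes was lower in the class II-high cells of all 4 libraries. The chemokines for monocytes Ccl2 (log2 -1.35) and Ccl7 (log2 -1.38) and for eosinophils Ccl24 (log2 -1.99) were lower as well. So were F13a1 (log2 -1.21), Clec4n (log2 -2.299), the scavenger receptor Stab1 (log2 -1.09), the galectin Lgals1 (log2 -1.08), the polo-like kinase Plk2 (log2 -2.97) and Wfdc17 (log2 -1.51), a small secreted protein. Among microglia marker-low cells 756 genes could be tested, and H2-DMb1 (log2 2.902, adjusted p = 0.00105), H2-DMa, Cd52, Pf4 and Stab1 still passed, with 4 genes higher and 4 lower in all. The counts rest on the library block: without it they were 2 higher and 14 lower, and DESeq2 gave 3 and 23.

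The Cd209a cells held more RNA of 7 of 9 Cd209 and Mgl lectins and of 15 of 19 border markers than the class II-high cells, and less of the H2-DM pair. Only 22 of 96 Cd209a cells passed the class II cut, so this contrast also sets mostly class II-low cells against class II-high ones. Between the Cd209a class and class II-low cells, 1 of 19 border markers and 0 of 4 class II genes passed the threshold. Against class II-high cells, 102 of 4934 genes (2.07%) were higher and 65 (1.32%) lower in the Cd209a class by the same edgeR quasi-likelihood test. Cd209d, a lectin of the same gene cluster, had 185, 247, 149.8 and 107 CPM in Cd209a cells of KO, Het and WT cuprizone and WT control, against 0, 0, 3.03 and 4.15 CPM in class II-high cells (log2 fold change 6.29 ± 0.41 (SE), adjusted p = 1.51e-14). Cd209b had 172, 241, 268 and 111 CPM, against 2.11, 16.7, 6.07 and 4.15 CPM (log2 fold change 4.66 ± 0.29 (SE), adjusted p = 3.97e-15), and Cd209f 954, 1384, 1427 and 819.6 CPM, against 59.2, 461, 45.5 and 87.2 CPM (log2 fold change 2.94 ± 0.23 (SE), adjusted p = 2.91e-12). In all 4 libraries the Cd209a cells were above the class II-high cells. The Cd209 genes are paralogs, so reads that could belong to several of them may be assigned unevenly. Of the 9 genes tested on the list of Cd209 and Mgl lectins, 7 were higher and 0 lower, with a median log2 fold change of 2.46, against -0.00 over all genes.

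Of the 19 border markers tested, 15 were higher and 1 lower in Cd209a cells than in class II-high cells. Examples are Pf4 (log2 1.47), the endocytic adaptor Dab2 (log2 1.46), F13a1 (log2 1.403) and Clec4n (log2 2.87). Ccl24 had 645, 391, 315 and 286 CPM in Cd209a cells, against 80.3, 28.5, 106 and 43.6 CPM in class II-high cells (log2 fold change 2.71 ± 0.21 (SE), adjusted p = 2.59e-12), with Ccl7 (log2 1.78) and Wfdc17 (log2 2.04) higher in 4 of 4 libraries. Lower in Cd209a cells were the cytokine Il1b (log2 -1.48), the maturation marker Cd83 (log2 -0.66), H2-DMa (log2 -0.90), H2-DMb1 (log2 -1.01), the class II-processing protease Ctss (log2 -0.41) and Cxcl16 (log2 -1.098). Cd52 (log2 -0.86), Fxyd5 (log2 -1.85), the secreted fibrinogen-like protein Fgl2 (log2 -2.12), the inhibitory receptor Cd72 (log2 -2.04) and the chemokine Ccl4 (log2 -0.47) were lower in each library too. Il1b had 150.2, 271, 142 and 175 CPM in Cd209a cells, against 374, 854, 673 and 274 CPM in class II-high cells (log2 fold change -1.48 ± 0.21 (SE), adjusted p = 4.34e-06). The neutrophil granule genes Ngp and Camp also passed, but 1 cell held 95.8% of the Ngp and 1 cell 97.1% of the Camp UMIs of the Cd209a class, and for Cxcl13 1 cell held 70.9% of the class II-high UMIs. Leaving out 1 library gave 62 to 97 genes higher and 22 to 47 lower, lowest without KO cuprizone (62 and 36) and without WT cuprizone (66 and 22). Among marker-low cells 20 genes were higher and 25 lower.

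Against class II-low cells the Cd209a class differed in few genes beyond the lectins, in a comparison added after seeing the data. Of 4934 genes, 14 (0.284%) were higher and 2 (0.0405%) lower in Cd209a cells, and 5 of the 14 were Cd209 or Mgl lectins. The 14 also held Ngp and Camp, of whose Cd209a-class UMIs 1 cell held 95.8% and 1 cell 97.1%. Cd209d (log2 3.56), Cd209b (log2 2.51), Cd209f (log2 2.06), Cd209g (log2 1.94) and Clec10a (log2 1.36) were higher in 4 of 4 libraries. The monocyte chemokine Ccl8 had 472, 638, 568 and 447 CPM in Cd209a cells, against 175, 319, 160.2 and 284 CPM in class II-low cells (log2 fold change 1.18 ± 0.19 (SE), adjusted p = 3.70e-04). The phospholipase Pla2g2d (log2 1.34), the fatty acid scavenger receptor Cd36 (log2 1.41), the secreted protein Egfl7 (log2 1.28) and Lst1 (log2 0.55) were higher, and the cell cycle inhibitor Cdkn1a (log2 -1.17) and Actb (log2 -0.38) lower. Over alternative settings, Pla2g2d, Lst1 and Actb kept the threshold in 4 of 12 each, Egfl7 in 5 of 12 and Cd36 in 3 of 11. Cdkn1a kept it in 7 of 12. Actb was lower in 3 of 4 libraries. Of the 19 border markers, 1 was higher and 0 lower by edgeR. Leaving out 1 library gave 8 to 17 genes higher, with 8 without KO cuprizone or without Het cuprizone and 9 without WT cuprizone, and 0 to 5 lower, with 0 without WT cuprizone and 5 without WT control. DESeq2 called 3 genes higher and 1 lower, and a fit without the library block 2 and 0.

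**Figure D3:**
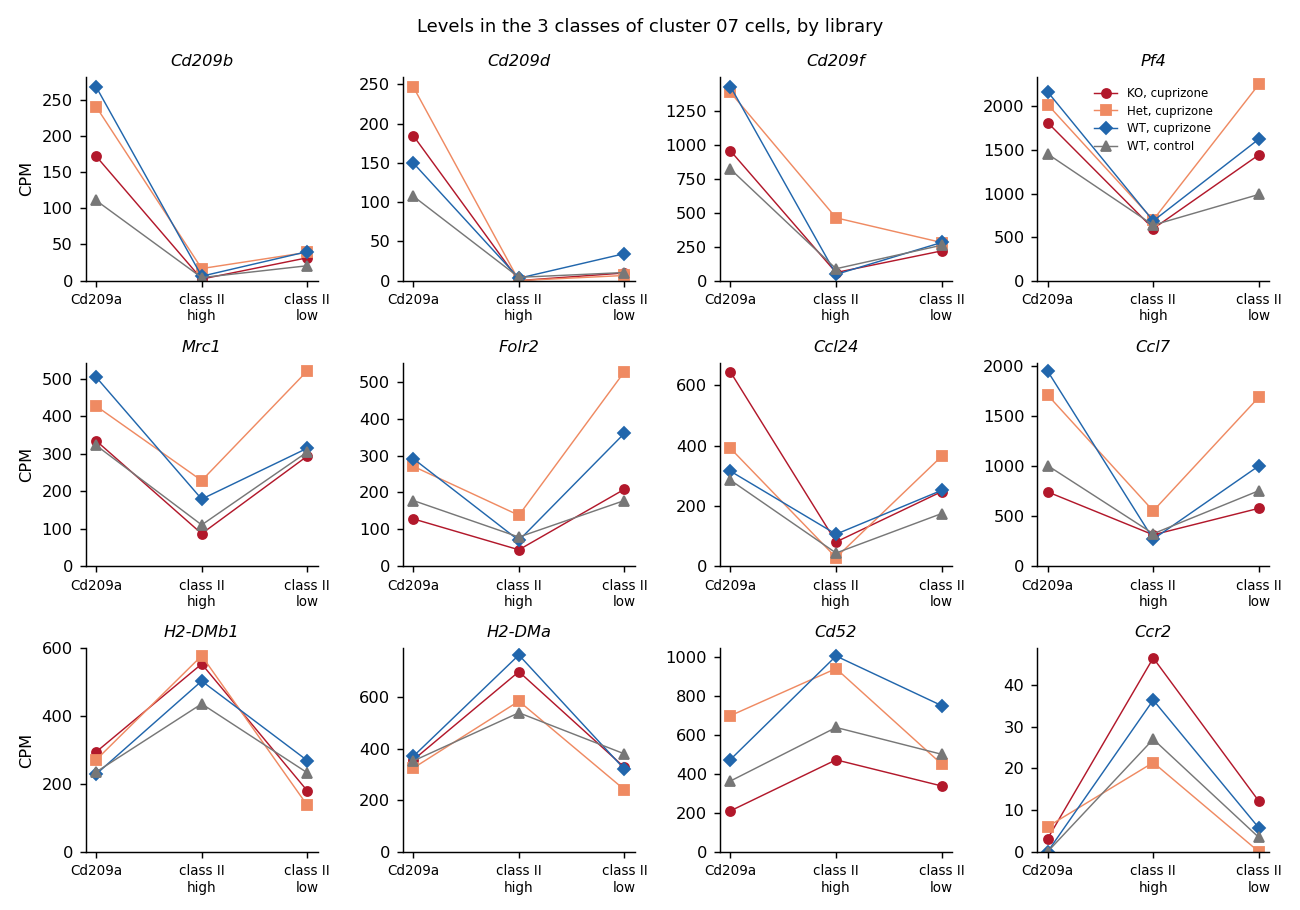
CPM of 12 genes (vertical) in the 3 classes of cluster 07 cells (horizontal), with 1 line for each library. H2-DMb1, H2-DMa, Cd52 and Ccr2 peak in class II-high cells, and the other 8 genes are lowest there in every library except Cd209f in Het cuprizone.

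On cuprizone, cluster 07 of WT mice held more MHC class II RNA than on the control diet, over all cells and in microglia marker-low cells. By the size rule (at least 1.5-fold, interval excluding 1, at least 50 UMIs over both libraries), 119 of 4103 genes (2.9%) were higher and 259 (6.31%) lower in WT cuprizone. Scaling by TMM factors moved the split to 181 higher and 165 lower. Of the 7 class II genes with 50 UMIs, 4 were higher and 0 lower, with a median log2 ratio of 1.03, against -0.08 over all genes. Cd74 had 11825 CPM in WT cuprizone cells, against 5325 CPM in WT control cells, a ratio of 2.22 (2.15 to 2.298). In marker-low cells the ratio of Cd74 was 2.303 (2.11 to 2.52). H2-Eb1 stood at 2.28 (2.11 to 2.48) over all cells and 3.05 (2.44 to 3.86) in marker-low cells, H2-Aa at 2.16 (2.03 to 2.31) and 2.67 (2.25 to 3.196), and H2-Ab1 at 2.04 (1.92 to 2.16) and 2.11 (1.82 to 2.45). In marker-high cells 2 of 7 class II genes were higher and 0 lower. Class II-high cells made up 16 of 32 marker-low cells in WT cuprizone and 8 of 16 in WT control. With cells thinned to 3319 UMIs, 58.6% of WT cuprizone and 57.0% of WT control cells held an H2-Aa UMI. For Cd74 these shares were 77.1% and 81.0%, so the ratios of summed UMIs were not matched by shares of cells. In the microglial pool, where 2.59% of 8819 genes were higher and 4.44% lower, Cd74 was 3.0004 and H2-Aa 2.94 times as high on cuprizone.

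Border markers gave opposite answers in the 2 cell sets. Over all cells, 7 of the 18 border markers with 50 UMIs were higher and 0 lower in WT cuprizone, among them Ms4a7 (1.64 (1.42 to 1.89)), Dab2 (1.73 (1.45 to 2.06)) and the matrix protein Tgfbi (1.82 (1.36 to 2.43)). In marker-low cells these 3 stood at log2 -0.36 for Ms4a7, -0.19 for Dab2 and -0.00 for Tgfbi. In marker-low cells, where 10.1% of 556 genes were higher and 11% lower, 0 of 13 were higher and 5 lower. Marker-high cells had 2.23% of 3768 genes higher and 4.09% lower, and 3 of 17 border markers higher and 0 lower. Pf4 had a ratio of 1.28 (1.16 to 1.41) over all cells and 0.495 (0.417 to 0.588) in marker-low cells, Mrc1 of 1.25 (1.03 to 1.53) and 0.545 (0.3704 to 0.808), and Cd209a of 1.48 (1.19 to 1.84) and 0.491 (0.363 to 0.667). The WT control set of marker-low cells was small, 16 cells with 58291 UMIs. The microglia markers moved the other way over all cells: their sum was 18374 CPM in WT cuprizone and 23348 CPM in WT control, and 5 of 18 were lower and 0 higher. None of the 18 was at 0. Their part in the border marker ratios was not tested.

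Among single genes, Cyr61, a secreted matrix protein, had 163 CPM in WT cuprizone cells, against 30.5 CPM in WT control cells, a ratio of 5.34 (3.58 to 8.15) over all cells and 5.65 (2.096 to 21.4) in marker-low cells, against 1.002 in the pool. The cytokine Il1b stood at 1.56 (1.32 to 1.84) over all cells and 9.42 (3.102 to 46.7) in marker-low cells, and Cxcl16 at 1.51 (1.18 to 1.93) and 2.96 (1.34 to 7.71). The marker-low ratio of Il1b rests on only 3 UMIs in WT control. Among class II-low cells Il1b turned to log2 -0.74 and Cxcl16 to -0.11. The monocyte chemokine Ccl8 had 271 CPM in WT cuprizone cells, against 457 CPM in WT control cells, and was lower over all cells (0.593 (0.496 to 0.706)) and in marker-low cells (0.368 (0.267 to 0.506)), although 1 WT control cell held 35.2% of its UMIs there. Apolipoprotein Apoe had a ratio of 1.76 (1.73 to 1.79) over all cells and 1.04 (1.01 to 1.08) in marker-low cells, and lysozyme Lyz2 of 1.69 (1.62 to 1.76) and 1.02 (0.943 to 1.103). Higher over all cells were also the secreted phosphoprotein Spp1 (6.18 (3.82 to 10.4)), the phagocytic receptor Axl (2.85 (2.01 to 4.08)), Rgs1 (2.02 (1.64 to 2.49)), the chromatin protein Hmgb2 (1.96 (1.53 to 2.503)) and Wfdc17 (1.64 (1.46 to 1.84)). None of these 5 met the size rule in marker-low cells, and Hmgb2 turned to log2 -0.19 there.

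Lower over all cells in WT cuprizone were the microglia genes Cx3cr1 (0.603 (0.561 to 0.647)), Sall1 (0.518 (0.374 to 0.706)), Sparc (0.663 (0.611 to 0.719)) and Crybb1 (0.481 (0.401 to 0.575)), and the lipoprotein receptor Lrp1 (0.384 (0.2801 to 0.518)). None of the 5 met the rule in marker-low cells, where Cx3cr1 turned to log2 0.41. All but Lrp1 are among the markers that split the cells. Their marker-low values are bounded by that split and cannot show whether their ratios hold. Basp1 (0.479 (0.404 to 0.565)), Kdm6b (0.411 (0.277 to 0.595)), Eef2k (0.377 (0.2197 to 0.617)), Pmepa1 (0.5797 (0.472 to 0.709)), Marcks (0.637 (0.5699 to 0.7099)), Prkca (0.419 (0.247 to 0.683)) and Snrnp70 (0.456 (0.303 to 0.671)) were lower over all cells too and did not meet the rule in marker-low cells. There Basp1 (log2 0.59), Eef2k (log2 0.59) and Pmepa1 (log2 1.76) turned, each on under 50 UMIs. Of the immediate early genes, which tissue dissociation can raise, 13 of 17 were lower in marker-low cells of WT cuprizone and 1 of 19 over all cells. Over all genes 11% and 6.31% were lower in the same order, so 1 of 19 is near the share of all genes called. The interferon-induced genes Ifitm3 (1.62 (1.43 to 1.84)) and Ifi27l2a (1.69 (1.45 to 1.96)) were higher over all cells, and Ifitm3 turned to log2 -0.22 in marker-low cells. Isg15 was lower over all cells (0.599 (0.416 to 0.848)), with 1 WT control cell holding 33.3% of its UMIs, but stood at log2 0.20 in marker-high and 1.74 in class II-low cells. Trem2 itself had 1970.3 CPM in WT cuprizone cells, against 2576 CPM in WT control cells, a ratio of 0.765 (0.715 to 0.818), which does not meet the size rule.

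Trem2 RNA was low in cluster 07 of KO cuprizone, which over all cells also held less Ccl12, Wfdc17 and class II RNA than cluster 07 of WT cuprizone. Trem2 had 387 CPM in KO cuprizone cells, against 1970.3 CPM in WT cuprizone cells, a ratio of 0.196 (0.176 to 0.218), and in marker-low cells 0.1704 (0.0985 to 0.278). The remaining 3′ reads do not show whether a full transcript was left. Of 4205 genes, 138 (3.28%) were higher and 123 (2.93%) lower in KO cuprizone than in WT cuprizone by the size rule. In marker-low cells 7.44% of 659 genes were higher and 5.31% lower, and in marker-high cells 2.27% of 3830 and 2.48%. Microglia markers moved with genotype too: 4 of 18 were higher and 1, Trem2, lower. Their sum was 19592 CPM in KO cuprizone and 18374 CPM in WT cuprizone, of which Trem2 itself made up 387 and 1970.3 CPM. The part of the microglia markers in the ratios was not tested, and the values in marker-low cells stand beside them.

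The monocyte chemokine Ccl12 had 662 CPM in KO cuprizone cells, against 1621 CPM in WT cuprizone cells, and was lower over all cells (0.408 (0.372 to 0.448)) and in marker-low cells (0.383 (0.298 to 0.487)). Wfdc17 was lower in both sets as well (0.4199 (0.3704 to 0.476) and 0.552 (0.443 to 0.684)). Of the 7 class II genes with 50 UMIs, 4 were lower and 0 higher over all cells, and 2 of 6 were lower in marker-low cells. In marker-high cells, 90 of the 114 KO cuprizone cells, 0 of 7 met the rule, with a median log2 ratio of -0.26. Cd74 had 6673 CPM in KO cuprizone cells, against 11825 CPM in WT cuprizone cells, a ratio of 0.564 (0.547 to 0.582) over all cells and 0.6603 (0.621 to 0.701) in marker-low cells. H2-Aa stood at 0.591 (0.557 to 0.627) and 0.728 (0.653 to 0.811), and H2-Ab1 at 0.599 (0.568 to 0.633) and 0.725 (0.656 to 0.802). In the pool the ratios were 0.243 for Cd74, 0.325 for H2-Aa and 0.369 for H2-Ab1, farther from 1 than in cluster 07, a difference that was not tested.

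Border markers again depended on the cell set: 0 of 18 were higher and 7 lower over all cells, and 3 of 14 higher and 2 lower in marker-low cells. In marker-high cells 0 of 17 were higher and 4 lower. Over all genes 3.28% were higher and 2.93% lower in all cells. These shares were 7.44% and 5.31% in marker-low cells and 2.27% and 2.48% in marker-high cells. Lyve1 had 47.5 CPM in KO cuprizone cells, against 116 CPM in WT cuprizone cells, lower over all cells (0.409 (0.285 to 0.584)) and in marker-low cells (0.483 (0.238 to 0.9198)). Folr2, a marker of the same cells, was lower in both sets (0.636 (0.498 to 0.815) and 0.465 (0.284 to 0.735)) but not in marker-high cells (1.32). Pf4 had a ratio of 0.981 (0.899 to 1.07) over all cells and was higher in marker-low cells (1.86 (1.601 to 2.17)). Mrc1 had 0.799 (0.659 to 0.971) over all cells and 1.55 (1.09 to 2.19) in marker-low cells, and Cd209a 0.971 (0.797 to 1.19) and 0.473 (0.308 to 0.70999). The eosinophil chemokine Ccl24 had 284 CPM in KO cuprizone cells, against 184 CPM in WT cuprizone cells, and was higher in both sets (1.54 (1.24 to 1.91) and 2.67 (1.82 to 3.96)), whereas in the pool it was 0.506 times as high. The growth factor Igf1 had 92.6 CPM in KO cuprizone cells, against 55.8 CPM in WT cuprizone cells, a ratio of 1.66 (1.13 to 2.49), with 3.52 (1.78 to 7.34) on under 50 UMIs in marker-low cells. Within class II-high cells alone both genes turned, to log2 -0.38 for Ccl24 and -0.34 for Igf1. Ccl24 stood at log2 -0.02 in class II-low cells and 0.03 with the Cd209a class left out.

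Over all cells of KO cuprizone, 1 of 9 CC chemokines was higher and 2 lower. Of 14 CXC chemokines and cytokines 2 were higher and 5 lower, and of 19 interferon response genes 1 was higher and 2 lower. In marker-low cells these counts were 1 and 5 of 8, 0 and 2 of 5, and 0 and 2 of 4. Over all genes 3.28% were higher and 2.93% lower in all cells, and 7.44% and 5.31% in marker-low cells. A single called gene of a list is too few to set against these shares. Lower over all cells and in marker-low cells were Ccl7 (0.645 (0.573 to 0.726) and 0.629 (0.496 to 0.793)), Cxcl16 (0.592 (0.462 to 0.7599) and 0.554 (0.315 to 0.939)), the anaphylatoxin receptor C5ar1 (0.589 (0.478 to 0.726) and 0.579 (0.358 to 0.914)) and Ifitm3 (0.604 (0.535 to 0.683) and 0.5797 (0.434 to 0.767)). Within class II-high cells alone Ccl7 turned to log2 0.23. Lower over all cells but not by the rule in marker-low cells were Il1b (0.613 (0.521 to 0.721)), the neutrophil chemokine Cxcl2 (0.551 (0.449 to 0.676)), Cd52 (0.435 (0.382 to 0.495)), Axl (0.429 (0.311 to 0.591)), Lilra5 (0.327 (0.214 to 0.496)) and the chemokine receptor Ccr1 (0.435 (0.308 to 0.612)). Il1b turned to log2 0.29 in marker-low and 0.02 in class II-low cells, and Ccr1 to 0.42 in class II-high cells. Spp1 stood at 0.163 (0.0998 to 0.258) over all cells, with 1 cell holding 40% of its 25 KO cuprizone UMIs, and at 0.02902 in the pool, but at log2 0.46 in marker-low cells, on under 50 UMIs. Ttr, the transthyretin of choroid plexus epithelium, was lower over all cells (0.444 (0.348 to 0.567)) and in the pool (0.515), while Kl, Folr1, Kcne2 and Clic6 of that epithelium were at 0 in cluster 07.

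Higher in KO cuprizone over all cells were Lrp1 (2.73 (2.04 to 3.73)), the microglia genes Serpine2 (1.78 (1.54 to 2.07)), Crybb1 (1.73 (1.45 to 2.08)) and Sparc (1.52 (1.4004 to 1.64)), the synaptogyrin Syngr1 (1.74 (1.52 to 2.00003)), the endothelial-type receptor Ecscr (1.64 (1.304 to 2.07)) and the calcineurin inhibitor Rcan1 (2.07 (1.28 to 3.47)). Dctpp1 (2.25 (1.43 to 3.67)), Pnpla7 (2.03 (1.31 to 3.26)), Ssu72 (1.79 (1.31 to 2.502)), Csrnp1 (1.87 (1.303 to 2.74)) and Snrnp70 (1.91 (1.299 to 2.89)) were higher as well, and none of these 12 met the rule in marker-low cells. There Lrp1 (3.81 (1.099 to 16.6)) and Sparc (2.24 (1.16 to 4.42)) had under 50 UMIs. Serpine2, Crybb1 and Sparc are among the markers that split the cells. Their marker-low values are bounded by that split and cannot show whether their ratios hold. The heat shock gene Hspa1a, raised by dissociation stress, was higher in both sets (1.55 (1.27 to 1.91) and 1.805 (1.15 to 2.86)). Of the immediate early genes 7 of 17 were higher in marker-low cells, 1 of 19 over all cells and 1 of 19 in marker-high cells. Over all genes 7.44%, 3.28% and 2.27% were higher in the same order, so 1 of 19 is near the share of all genes called.

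With 1 Trem2 copy, Igf1, Cd209f and Crlf2 were higher over all cells of cluster 07 and in marker-low cells. Of 3380 genes, 69 (2.04%) were higher and 69 (2.04%) lower in Het cuprizone by the size rule. In marker-low cells 4.56% of 878 genes were higher and 3.42% lower, and in marker-high cells 1.35% of 2661 and 2.18%. Trem2 had 1187 CPM in Het cuprizone cells, against 1970.3 CPM in WT cuprizone cells, a ratio of 0.603 (0.553 to 0.657) over all cells and 0.661 (0.523 to 0.834) in marker-low cells. Igf1 had 121 CPM in Het cuprizone cells, against 55.8 CPM in WT cuprizone cells, a ratio of 2.16 (1.46 to 3.28) and 2.53 (1.34 to 5.13). Cd209f stood at 1.63 (1.39 to 1.91) over all cells and 1.696 (1.38 to 2.096) in marker-low cells, the thymic stromal lymphopoietin receptor Crlf2 at 1.68 (1.2997 to 2.17) and 2.45 (1.35 to 4.71), and Hspa1a at 1.81 (1.47 to 2.24) and 2.16 (1.48 to 3.21). In class II-low cells Cd209f stood at log2 -0.00. In the Cd209a class it had 1384 CPM in Het cuprizone and 1427 CPM in WT cuprizone. In class II-high cells it had 461 CPM (194 UMIs) in Het cuprizone and 45.5 CPM (15 UMIs) in WT cuprizone, so the rise was not seen in every class. Microglia markers were at 16873 CPM in Het cuprizone and 18374 CPM in WT cuprizone, with 0 of 18 higher and 1, Trem2, lower. Trem2 itself made up 1187 and 1970.3 CPM of these sums.

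The class II genes met the rule in marker-low cells only, where 5 of 6 were lower and 0 higher. Cd74 had 10451 CPM in Het cuprizone cells, against 11825 CPM in WT cuprizone cells, a ratio of 0.884 (0.856 to 0.912) over all cells and 0.611 (0.581 to 0.642) in marker-low cells, and H2-Aa 0.803 (0.755 to 0.855) and 0.519 (0.471 to 0.572). Of the border markers, 0 of 18 were higher and 2 lower over all cells. Pf4 stood at 1.06 (0.967 to 1.17) and Mrc1 at 1.19 (0.976 to 1.45). The suppressor of cytokine signalling Socs3 was lower in both sets (0.653 (0.543 to 0.783) and 0.416 (0.225 to 0.747)), as was the chemokine receptor Ccr1 (0.618 (0.431 to 0.879) and 0.524 (0.305 to 0.885)), although Ccr1 turned to log2 1.15 in class II-high cells. Over all cells but not in marker-low cells, Rgs1 (0.518 (0.411 to 0.6502)), the transcription factor Sox4 (0.488 (0.3503 to 0.674)), Ccl4 (0.653 (0.611 to 0.698)), Ttr (0.593 (0.458 to 0.767)), Evl (0.586 (0.442 to 0.773)), Arrdc3 (0.567 (0.401 to 0.797)) and Lilra5 (0.5298 (0.346 to 0.802)) were lower, and Ccl4 stood at log2 0.03 in marker-low cells. Cst7 (1.81 (1.33 to 2.48)), Hsp90aa1 (1.71 (1.32 to 2.23)), Gadd45g (1.799 (1.27 to 2.58)), Dnm2 (1.75 (1.23 to 2.51)), the receptor chain Csf2ra (1.63 (1.19 to 2.25)), Tnfrsf1a (1.59 (1.14 to 2.24)) and Snrnp70 (1.71 (1.12 to 2.67)) were higher over all cells but not in marker-low cells, where Dnm2 turned to log2 -0.04. Cst7 turned to log2 -1.53 in class II-low cells. Neutrophil genes such as S100a8 were higher by the rule, but 1 Het cuprizone cell held 94.8% of the 830 S100a8 UMIs.

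The knockout and heterozygote comparisons share the WT cuprizone library, which also serves the diet comparison. For Cd74 the CPM over all cells were 6673 in KO cuprizone, 10451 in Het cuprizone, 11825 in WT cuprizone and 5325 in WT control. WT cuprizone was the highest library for Cd74, H2-Aa, H2-Ab1 and H2-Eb1, and WT control the lowest. In marker-low cells WT cuprizone stayed highest for Cd74 and H2-Aa. There it was also the lowest library for Pf4, Mrc1 and Igf1, so every ratio against it carries that library's level.

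**Figure D4:**
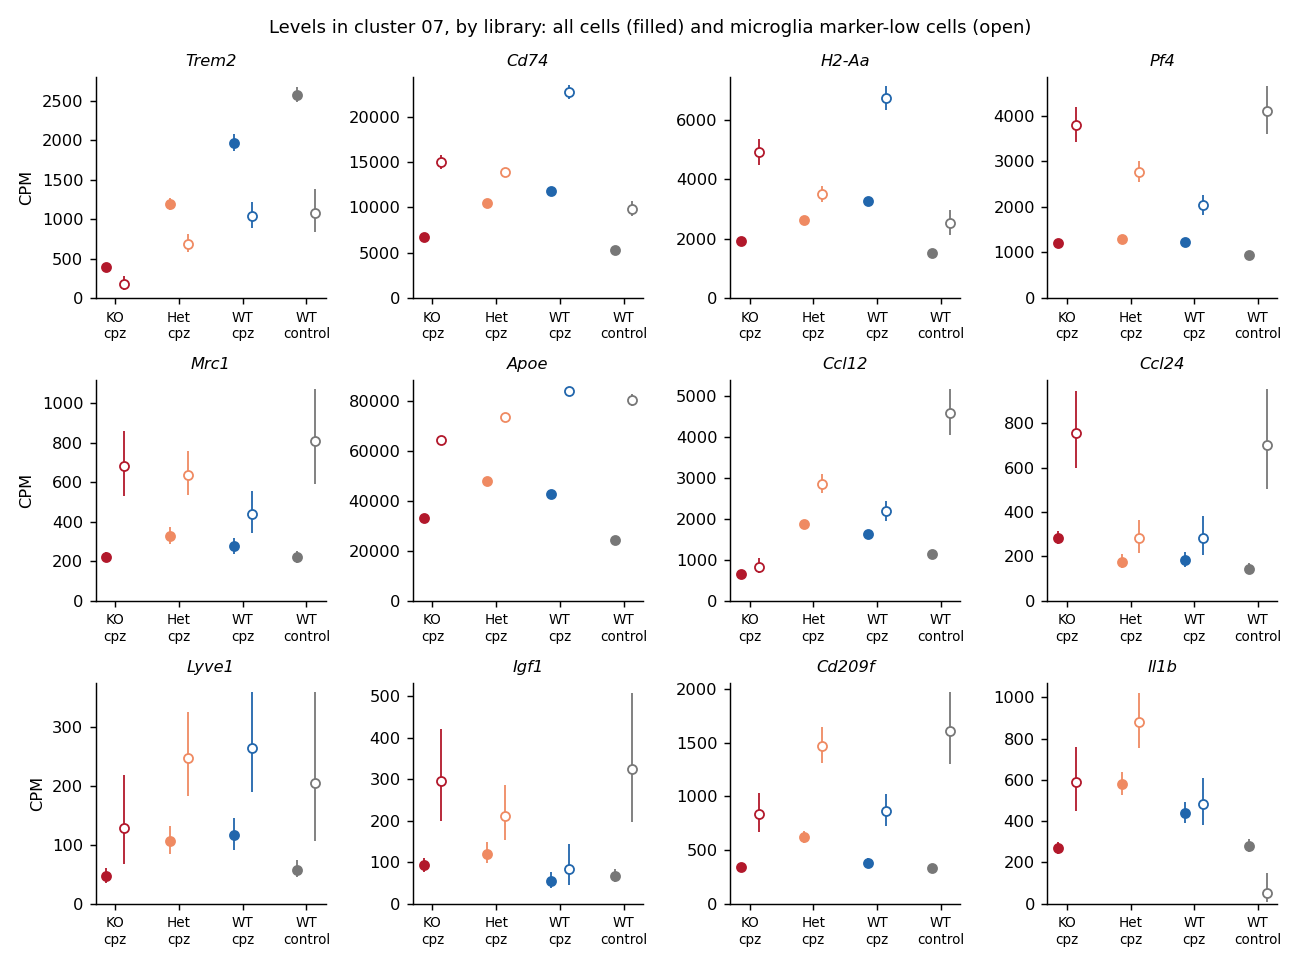
CPM of 12 genes (vertical, with exact Poisson 95% intervals for counting error) in the 4 libraries (horizontal), over all cells of cluster 07 (filled) and over microglia marker-low cells (open). Cd74 and H2-Aa are highest in WT cuprizone in both sets, and the open points of Pf4 run from 2029.7 CPM in WT cuprizone to 4100.1 CPM in WT control while the filled points stay between 951 and 1294 CPM.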

How the data were processed

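The authors deposited whole UMI counts for 12800 genes in 3023 cells, made with Cell Ranger 2.1.1 on mm10 per the submitters' processing notes, and a cell file naming each cell's library and its cluster, 1 of 8. How the clusters were made is not given in the sources used here. Libraries were Chromium 3′, 1 per group, so a p-value could not be had for diet or genotype. From the counts, UMIs were summed per library and cell set and divided by the set's total (CPM). In the class comparisons this total excluded the genes left out of the test. Libraries were compared by the ratio of CPM with an exact conditional 95% interval, a floor of 3 UMIs standing in for 0, and a gene was called at 1.5-fold with an interval excluding 1 and at least 50 UMIs. Depth per library was 645093 to 1219988 UMIs in cluster 07, which the intervals reflect.

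MHC class II and microglia cuts were found by splitting log scores into 2 groups of least spread (2-means). Class differences, over summed counts of each class in each library, were tested with edgeR 4.0.16 (R 4.3.3; TMM, filterByExpr, quasi-likelihood, library as a block, Benjamini-Hochberg), with DESeq2 1.42.0 as an alternative; the procedures were tested on simulated data. Since the classes were cut from the same cells' counts, these p-values measure spread between the 4 libraries only. Shares of cells have exact Clopper-Pearson intervals. Doublets were called per library with Scanpy 1.11.5's Scrublet. Promoters came from RefSeq sequence on GRCm38.p6. Python 3.11.15 with scipy 1.17.1 was used.

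Named genes were, per comparison, the 12 called genes a direction whose interval lay farthest from 1 (at least 100 UMIs, no cell over 25% of the UMIs), up to 3 called members a direction of each list, the genes leading cluster 07, the 12 genes a direction with the smallest adjusted p per class contrast, Trem2 and the label markers; gene models and ribosomal proteins were not named, and some genes the rule picked are not reported here. The cluster, lists and rules were chosen with earlier results of these data known. The microglia marker split and the contrast of the Cd209a class with class II-low cells were added after seeing the data.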

Additional observations from a re-analysis of the deposited data

Results flagged for a closer look

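For 6 gene ratios the size rule called opposite directions in cluster 07 and in the microglial pool of the same libraries; the difference itself was not tested. Between WT cuprizone and WT control, Cxcl10, a chemokine induced by interferon, stood at log2 -1.22 in cluster 07 and log2 0.9997 in the microglial pool, with 1 WT control cell holding 47.96% of its cluster 07 UMIs. Isg15, a ubiquitin-like protein induced by interferon, stood at log2 -0.74 in cluster 07 and log2 1.73 in the microglial pool, with 33.3% of its WT control UMIs in 1 cell. In marker-high cells both ratios had the sign of the pool.

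Between KO cuprizone and WT cuprizone, Ccl24 stood at log2 0.62 in cluster 07 and log2 -0.98 in the microglial pool, and Igf1 at log2 0.73 in cluster 07 and log2 -0.97 in the microglial pool. Gbp2, an interferon-induced GTPase, stood at log2 1.24 in cluster 07 and log2 -0.61 in the microglial pool, with 1 KO cuprizone cell holding 77.6% of its UMIs. Between Het cuprizone and WT cuprizone, Isg15 stood at log2 0.59 in cluster 07 and log2 -0.81 in the microglial pool, with 1 cell in each library holding 22.8% of the Het cuprizone and 24.4% of the WT cuprizone UMIs. With 1 library a group, samples far from the others of their group could not be looked for.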

How the results depend on the processing

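Counts of called genes moved with the threshold and with the cells counted, and the cause was not tested. The counts with 50 UMIs and 1.5-fold are those of the results. For the diet, 119 genes were higher and 259 lower; these were 181 and 165 with TMM scaling, 160 and 394 with a minimum of 20 UMIs, 221 and 457 with no minimum, 24 and 77 with a 2-fold rule. They were 62 and 148 with class II-high cells, 52 and 74 with class II-low cells, 56 and 61 with marker-low cells and 84 and 154 with marker-high cells. For the knockout, 138 were higher and 123 lower; these were 211 and 178 with a minimum of 20 UMIs, 255 and 253 with no minimum, 41 and 27 with a 2-fold rule. They were 71 and 61 with class II-high cells, 49 and 47 with class II-low cells, 49 and 35 with marker-low cells and 87 and 95 with marker-high cells. For the heterozygote, 69 were higher and 69 lower; these were 122 and 129 with a minimum of 20 UMIs, 185 and 186 with no minimum, 21 and 11 with a 2-fold rule. They were 59 and 36 with class II-high cells, 32 and 33 with class II-low cells, 40 and 30 with marker-low cells and 36 and 58 with marker-high cells. No paired analysis was possible for diet and genotype because each group holds 1 library. For class II-high over -low, 12 genes were higher and 46 lower; these were 3 and 23 with DESeq2, 52 and 68 with no filter, 2 and 14 with no library block, 14 and 29 with doublets and the deepest 5% of cells left out and 4 and 4 with marker-low cells. Leaving out each library gave 8 to 26 higher and 34 to 56 lower. For the Cd209a class over class II-high, 102 were higher and 65 lower; these were 55 and 21 with DESeq2, 110 and 104 with no filter, 39 and 12 with no library block, 20 and 25 with marker-low cells and 57 and 24 with marker-high cells. Leaving out each library gave 62 to 97 higher and 22 to 47 lower. For the Cd209a class over class II-low, 14 were higher and 2 lower; these were 3 and 1 with DESeq2, 25 and 11 with no filter, 2 and 0 with no library block, 17 and 4 with the median cut, 11 and 1 with doublets and the deepest 5% of cells left out, 8 and 11 with 1 Cd209a UMI enough, 1 and 1 with marker-low cells and 8 and 3 with marker-high cells. Leaving out each library gave 8 to 17 higher and 0 to 5 lower. The library served as the replicate block of these fits. Against the microglial clusters, 56 genes were 2-fold higher and 0 lower in each library; these were 81 and 1 against clusters 05 and 06, and 33 and 12 against cluster 04. The class II-high share of each library moved by less than its interval with the median cut and with thinned cells. A change of sign was counted only for genes that the size rule called over all cells. Turns of other genes, such as Pf4 and Mrc1 in marker-low cells, were not counted. Of 1848 recomputed gene ratios, 65 changed sign by this count, and their log2 ratios follow. The class II cut was made on Cd74 and H2-Ab1 among others, so their values in class II-low cells are bounded by it. For the diet in class II-high cells they were Clec10a -0.48 and Ccr1 -1.02. For the knockout in class II-high cells they were Ccr1 0.42, Ccl24 -0.38, Ccl7 0.23 and Igf1 -0.34. For the heterozygote in class II-high cells they were Fcna 0.078, Ccr1 1.15, Spp1 -1.16 and Lcn2 -1.92. For the diet in class II-low cells they were Cd74 -0.12, H2-Ab1 -1.09, Clec10a -0.35, Clec4a1 -0.11, Mbp -0.11, Il1b -0.74, Cxcl16 -0.11, Cxcl13 -0.72 and Isg15 1.74. For the knockout in class II-low cells they were Cd74 0.072, H2-Ab1 0.95, Clec4a1 0.026, Ccl24 -0.024, Il1b 0.023, Cd72 0.22, Gbp2 -0.50 and H2-Q7 2.67. For the heterozygote in class II-low cells they were Cd209f -0.0011 and Cst7 -1.53. For the diet in marker-high cells they were Cd209b -0.021, Cxcl13 -1.66, Cxcl10 0.26, Msr1 -0.20 and Isg15 0.20. For the knockout in marker-high cells they were Folr2 0.40 and Gbp2 -1.305. For the heterozygote in marker-high cells they were Spp1 -0.44 and Lcn2 -0.75. For the diet in marker-low cells they were Hmgb2 -0.19, Basp1 0.59, Eef2k 0.59, Cx3cr1 0.41, Pmepa1 1.76, Ms4a7 -0.36, Dab2 -0.19, Tgfbi -0.0022 and Clec10a -0.22. For the diet in marker-low cells they were Scarb2 0.18, C4b -0.060, Itgam 0.18, Ifitm3 -0.22 and Rtp4 -1.301. For the knockout in marker-low cells they were Spp1 0.46, S100a8 -0.13, Il1b 0.29 and Cd36 1.25. For the heterozygote in marker-low cells they were Dnm2 -0.045, Ccl4 0.028 and Il1a 1.199. For the diet without the Cd209a class it was Clec10a -0.45. For the heterozygote without the Cd209a class they were Spp1 -0.52 and Lcn2 -1.76. For the diet without the top cell of each gene it was Cxcl13 -0.35. For the knockout without the top cell of each gene it was Gbp2 -0.39. For the heterozygote without the top cell of each gene it was Lcn2 -0.81. Cd209a against cluster 04 stood at log2 -0.089 in the lowest library. Of 670 recomputed class fold changes, 119 kept their direction and lost the threshold, and none changed sign. Depth limits the marker-low sets most, above all the 16 cells of WT control, where 556 genes had 50 UMIs for the diet.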

Other observations

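Several gene groups of cluster 07 stand beside those of the results. The lysosome list, proteases and hydrolases such as cathepsins, had 1 of 25 genes higher and 1 lower in WT cuprizone than in WT control, 0 of 25 genes higher and 0 lower in KO cuprizone than in WT cuprizone and 1 of 25 genes higher and 0 lower in Het cuprizone than in WT cuprizone, by the size rule. Over all genes 2.9% were higher and 6.31% lower for the diet, 3.28% and 2.93% for the knockout and 2.04% and 2.04% for the heterozygote, so 1 of 25 is near the share of all genes called. The summed level of the lysosome list was 90340.2, 83033, 81979 and 98903 CPM in KO, Het and WT cuprizone and WT control. The iron and heme list had 0 of 10 genes higher and 0 lower for the diet, 0 of 10 genes higher and 2 lower for the knockout and 1 of 11 genes higher and 0 lower for the heterozygote. The 12 mitochondrially encoded genes had 0 of 12 genes higher and 0 lower, 0 of 12 genes higher and 0 lower and 0 of 11 genes higher and 0 lower in the same 3 comparisons.

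The list of genes that rise in disease-associated microglia had 8 of 23 genes higher and 0 lower in WT cuprizone over all cells of cluster 07, 0 of 13 genes higher and 0 lower in marker-low cells and 18 of 28 genes higher and 0 lower in the pool. Over all genes the higher and lower shares for the diet were 2.9% and 6.31% in all cells, 10.1% and 11% in marker-low cells and 2.59% and 4.44% in the pool. The summed level of the disease-associated list over all cells was 73820.4, 93075, 84882 and 60573 CPM in KO, Het and WT cuprizone and WT control. The interferon response list had 7 of 18 genes higher and 2 lower over all cells, 0 of 6 genes higher and 2 lower in marker-low cells and 19 of 26 genes higher and 0 lower in the pool. The summed neutrophil list was 249.2, 3036, 58.9 and 10.2 CPM in the same order, and 1 Het cuprizone cell held 94.8% of the S100a8 UMIs of that library and 1 held 93.1% of the S100a9 UMIs.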
